A study of Arabidopsis thaliana with 8 samples.

Results

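CVL125 is a recombinant inbred line of Arabidopsis thaliana, a nearly homozygous mosaic of the accessions Landsberg erecta (Ler) and Cape Verde Islands (Cvi). DNA methylation of 3 selected CVL125 populations was compared with that of the CVL125 ancestor. The selected populations, named D1, D5 and D6 after their landscapes, had passed through 5 generations of selection followed by 2 generations without selection. The ancestral CVL125 pool had seen no selection. DNA came from the whole above-ground parts of plants aged 25 days, with 4 plants in each selected pool and 4 in the ancestral pool. There was 1 pool per population, and 1 ancestral pool stood behind all 3 comparisons. CVL39, a second line from the same cross with the same design, serves as contrast. The deposited list of each selected pool names the cytosines called different from its ancestor at an unadjusted p-value up to 0.05. They are called differentially methylated cytosines (DMCs) and are given with strand, position and p-value. The lists give neither read counts nor methylation levels nor the direction of a difference, so nothing below says whether methylation was gained or lost. In whole shoots, a change within cells and a change in the mix of cells cannot be told apart. The line itself cannot be checked from lists of positions.

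All nuclear rows that fell on a cytosine of the TAIR10 reference were used, with positions counted from 0 in the files and from 1 in the text. They were 33934 of the 34352 rows of the CVL125 lists, 12563 in D1, 14074 in D5 and 7297 in D6, out of 70564 in the whole series. D6 was the shortest list and its p-values were the highest. Its median p-value was 0.0286, against 0.0223 in D1 and 0.0210 in D5, and 10.3% of its p-values were at most 0.005, against 20.1% in D1 and 22.8% in D5. The methods of the study call the SOLiD reads behind these lists a low-coverage pilot. The DMCs that the paper reports come from separate Illumina data. The depth of each pool is unknown, so the part of depth in the short D6 list was not tested, and D6 is shown apart throughout.

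Plant DNA is methylated in several sequence contexts, which different enzymes maintain. CG methylation is copied onto the new strand by MET1 and is found both in transposons and along the bodies of many expressed genes. CHG methylation (H is A, C or T) depends mainly on CMT3, and CHH methylation on CMT2 and on DRM2, which small RNAs guide to transposons and repeats. Methylation outside CG is therefore known mainly from the silent, transposon-rich regions around the centromeres.

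Most DMCs of CVL125 stood alone, and a minority stood in short groups. A few of these groups, chosen for positions listed in several populations, show what the lists hold. Each sequence below is read 5′ to 3′ from the TAIR10 nuclear sequence with 10 bases on either side of the group. Capitals mark cytosines listed in at least 2 CVL125 populations, and a capital G marks a listed cytosine on the opposite strand. The first pair shows CG groups in pseudogenes, the next pair groups mainly outside CG, the following pair CG sites in protein-coding genes, then 1 gene of a chromosome 2 segment and 1 intronic CT run.
AT5G29022, chr5:11047812-11047856, minus strand: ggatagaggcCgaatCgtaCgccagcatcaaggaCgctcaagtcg
AT3G30837, chr3:12569829-12569875, minus strand: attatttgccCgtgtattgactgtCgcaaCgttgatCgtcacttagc
AT3G43526, chr3:15423943-15423998, minus strand: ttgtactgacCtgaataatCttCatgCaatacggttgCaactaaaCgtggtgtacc
intergenic, chr3:8538125-8538161, minus strand: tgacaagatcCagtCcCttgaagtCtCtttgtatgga
ETR2, chr3:8256215-8256247, plus strand: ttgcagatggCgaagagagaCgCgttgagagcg
ckl10, chr3:8353745-8353780, plus strand: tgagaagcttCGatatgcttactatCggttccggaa
5PTase12, chr2:18179974-18180002, plus strand: tggtacataaCGtaggtCGttgagcaacg
LAZ5, chr5:18117951-18118013, plus strand: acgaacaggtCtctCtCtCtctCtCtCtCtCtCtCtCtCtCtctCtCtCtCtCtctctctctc

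In the AT5G29022 and AT3G30837 sequences all 4 marked cytosines were listed in each of the 3 populations. In AT5G29022 their p-values were 0.00216 to 0.0152 in D1, 0.000333 to 0.00466 in D5 and 0.00476 to 0.0152 in D6. The intergenic group on chromosome 3 had 4 CHH cytosines and 1 CHG cytosine, again listed in every population, and lay 862 bp from SCRL13, the nearest protein-coding gene. In ETR2 the 3 marked cytosines were listed in D1 and D5 and not in D6. In LAZ5 the same held for 19 CHH cytosines of a single CT run.

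CG was the commonest context in D1 and D5, while in D6 CHH DMCs outnumbered CG DMCs. CG cytosines were 43.2% of the D1 list (exact 95% Clopper-Pearson interval 42.4% to 44.1%), 47.7% of D5 (46.9% to 48.5%) and 37.2% of D6 (36.04% to 38.3%), where they are 13.0% of nuclear cytosines. These intervals cover counting error only. The lists held 5431 CG, 2097 CHG and 5035 CHH DMCs in D1, 6713, 2107 and 5254 in D5, and 2711, 1675 and 2911 in D6. D6 was thus shortest in CG and closest to the other lists in CHG. Its CHG share was 23.0%, against 16.7% in D1 and 15.0% in D5.

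**Figure D1:**
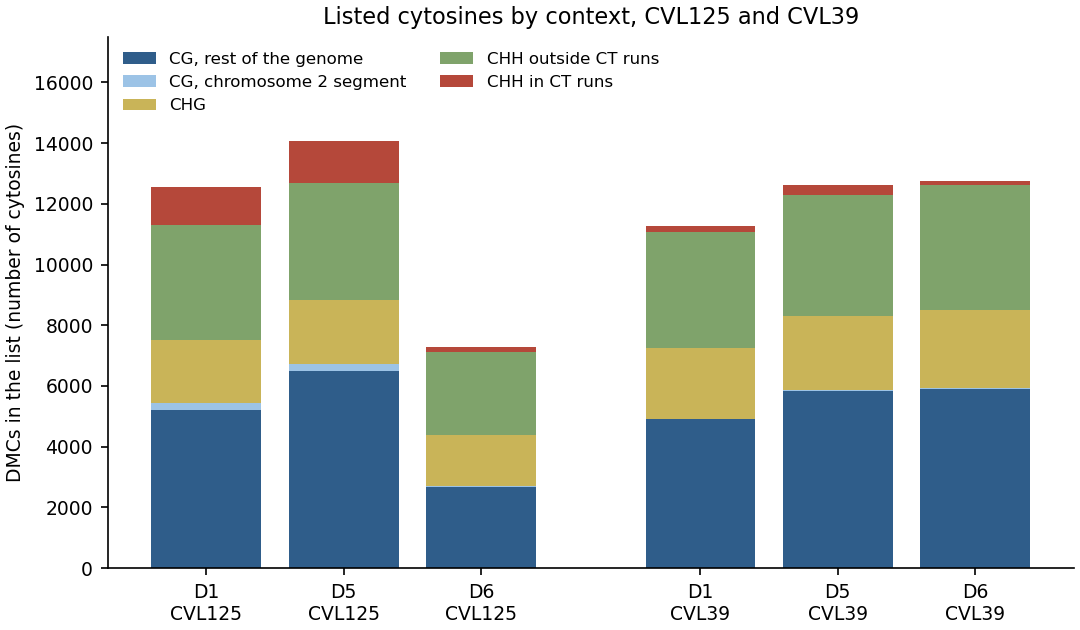
Number of listed cytosines (DMCs) by sequence context in each list, CVL125 at left and CVL39 at right, with CG DMCs in a chromosome 2 segment and CHH DMCs in runs of CT dinucleotides drawn as separate layers. The D6 bar of CVL125 is the shortest, with 7297 DMCs, and CHH DMCs in CT runs number 1274 in D1, 1390 in D5 and 172 in D6 of CVL125, against 145 to 328 in the CVL39 lists.

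A large layer of the CHH calls lay in CT repeats. Stretches in which CT is repeated 4 times or more, read on either strand and called CT runs, contain 0.315% of the CHH cytosines of the genome. They held 1274 CHH DMCs in D1 (25.3% of its CHH DMCs), 1390 in D5 (26.5%) and 172 in D6 (5.91%). In CVL39 the shares were 4.78% in D1, 7.59% in D5 and 3.42% in D6. The 1797 distinct CVL125 positions fell into 265 of 20240 such runs in the genome, and 1502 of them stood in 106 runs with at least 5 DMCs. By annotation, 559 lay in untranslated exons, 277 in introns and 645 in intergenic DNA away from genes. Of the pairs of a position and a protein-coding gene with the position in an untranslated exon, 94.3% were nearer to the start than to the end of the gene, and 72.6% were on the gene's own strand. Without CT runs and the chromosome 2 segment described below, CHH made up 34.0% of D1, 31.0% of D5 and 38.7% of D6.

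The 4 genes named next had the most CHH positions in CT runs listed in at least 2 CVL125 populations. D6 held few CHH DMCs in CT runs, so this choice favours genes of D1 and D5. Low counts in D6 or CVL39 are therefore no separate result. PSS1 (AT1G15110), a phosphatidylserine synthase, had 23 DMCs in D1, 24 in D5 and 1 in D6, of which 20 distinct positions lay in a CT run of its untranslated exon. LAZ5 (AT5G44870), a resistance protein of the TIR-NBS-LRR class, had 19 in D1, 22 in D5 and 0 in D6. AT4G39900, annotated as an adenine deaminase, had 23 in D1, 19 in D5 and 0 in D6. In these 3 genes D6 had at most 1 DMC and the CVL39 lists at most 2. AT1G10610, a basic helix-loop-helix protein, differed from them. It had 11 DMCs in D1, 22 in D5 and 17 in D6, against 10, 9 and 6 in the CVL39 lists, and its D6 count lay between those of D1 and D5.

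CG DMCs of CVL125 were mostly exonic. Coding exons held 73.4% of CG DMCs in D1, 74.3% in D5 and 68.3% in D6, where they hold 41.1% of the CG cytosines of the genome. Untranslated exons held about 2% in each list, namely 2.12%, 2.07% and 1.92%, against 9.51% of genomic CG. The kilobase upstream of protein-coding genes held 1.55%, 1.43% and 1.62%, against 10.5% of genomic CG. D6 had more of its CG DMCs in pseudogenes, 13.1%, against 9.21% in D1 and 8.37% in D5. Which cytosines the authors could test is unknown, so the genome shares serve as a scale and no test was made against them.

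**Figure D2:**
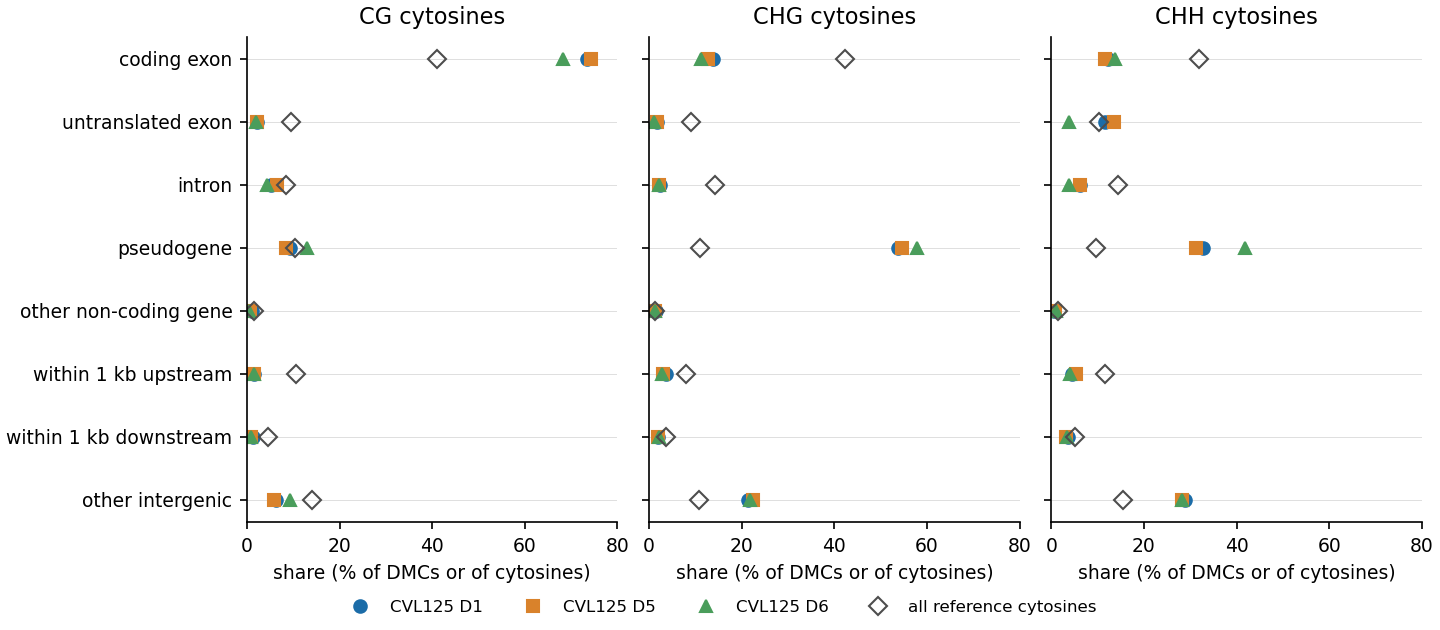
Share of CG, CHG and CHH DMCs by annotated feature in D1, D5 and D6 of CVL125 (filled symbols, in percent of the DMCs of that context in the list), with the share of all reference cytosines of the context (open diamonds). Coding exons hold 68.3% to 74.3% of CG DMCs and pseudogenes 53.6% to 57.7% of CHG DMCs, in each case to the right of the diamond.

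Within protein-coding genes, CG DMCs were placed towards the end of the gene. Outside CT runs and the segment, 70.1% of them in D1, 69.2% in D5 and 68.1% in D6 lay beyond the midpoint of the gene body, a mean of 69.1% ± 0.967 (SD, n = 3), where 45.9% of genomic CG sites of these genes lie. The starting 20% of the gene body held 4.66%, 4.57% and 4.67%, against 25.3% of genomic CG sites. The final 10% held 6.75%, 6.50% and 6.26%, against 7.52% of genomic CG sites. The 3 lists differed by less than 2 percentage points in each of these shares, and D6 did not stand apart here.

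**Figure D3:**
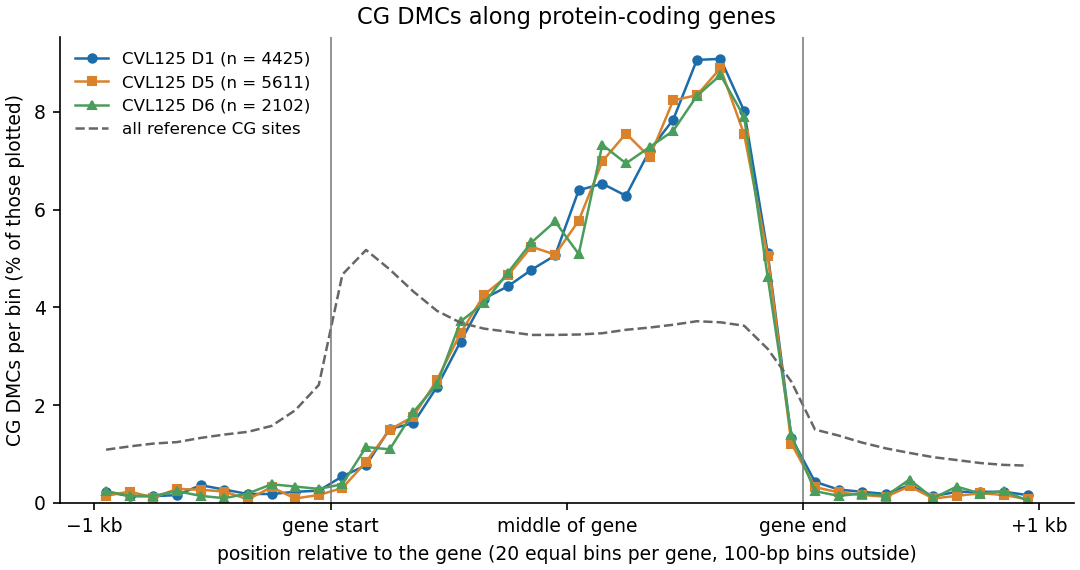
CG DMCs of CVL125 along protein-coding genes, as the percentage of plotted DMCs in each bin for D1, D5 and D6 (lines with symbols), with all reference CG sites as a dashed line. All 3 lists climb towards the last part of the gene and drop before the gene end, and the starting 20% of the gene holds 4.57% to 4.67% of genic CG DMCs.

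CHG and CHH DMCs had the opposite distribution. Loci annotated as pseudogenes, which in this annotation include most transposon genes, held 53.6% of CHG DMCs in D1, 54.7% in D5 and 57.7% in D6, where they hold 11.0% of genomic CHG cytosines. Of CHH DMCs they held 32.8% in D1, 31.3% in D5 and 41.9% in D6, against 9.72% of genomic CHH. Without CT runs and the segment these CHH shares were 43.7%, 42.1% and 44.3%, and D6 no longer stood apart. RefSeq annotates few transposable elements as such, so transposons outside these loci count as intergenic.

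The same contrast appeared along the chromosomes. Windows of 500 kb in which protein-coding genes cover under 40% of bases, 25.5 Mb in total around the 5 centromeres, contain 20.1% of CHG cytosines of the genome. They held 72.2% of CHG DMCs in D1, 73.7% in D5 and 76.4% in D6. For CHH they held 60.0%, 58.0% and 66.3%, and for CG 19.8%, 17.801% and 25.7%, against 21.6% of genomic CG. CHG DMCs were thus 10.3-fold denser per cytosine inside these windows than outside in D1, 11.1-fold in D5 and 12.9-fold in D6, whereas the CG density ratio was 0.897 in D1, 0.788 in D5 and 1.26 in D6. Outside CT runs, the window with the most DMCs in each CVL125 list was chromosome 4 from 3500001 to 4000000, with 251 in D1, 265 in D5 and 217 in D6, although D6 as a whole was the shortest list.

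By trinucleotide, CHH DMCs leaned to CAA and CTA, the contexts that CMT2 is known to prefer. Outside CT runs CAA made up 29.1% of CHH DMCs in D1, 30.1% in D5 and 31.8% in D6, against 18.1% of genomic CHH outside runs. CTA made up 18.2%, 17.83% and 19.2%, against 10.04%. CTC was 12.1% in D1 and 12.3% in D5, above its genomic 10.4%, and 10.004% in D6. Among CHG DMCs, CCG had 18.9% in D1, 15.9% in D5 and 17.7% in D6, against 19.2% of genomic CHG outside runs.

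A CG site carries a cytosine on each strand, and its methylation is normally symmetric. Both strands of a CG site were listed for few DMCs, 3.65% in D1 (95% interval 3.16% to 4.18%), 4.35% in D5 (3.87% to 4.87%) and 1.33% in D6 (0.932% to 1.83%). These intervals treat each cytosine as a separate trial although partners come in pairs, so they are too narrow to set D6 apart. D6 also had the fewest CG DMCs, 2711 against 5431 in D1 and 6713 in D5, and the part of list length was not tested. Outside CT runs, 16.3% of CG DMCs in D1, 15.4% in D5 and 11.7% in D6 had another CG DMC within 50 bp on the same strand, and 5.07%, 6.10% and 1.99% had one on the other strand. For CHH the same-strand figures were 29.8%, 30.4% and 25.2%. Neighbours of one strand and context within 50 bp had an identical p-value in 15.4% of CG pairs in D1, 10.3% in D5 and 19.5% in D6. For CHH pairs this share was 18.2% in D1, 17.5% in D5 and 28.1% in D6. The number of DMCs in a gene is therefore not read as a number of separate events.

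The 3 lists named 28194 distinct positions, of which 639 (328 CG, 65 CHG and 246 CHH) were in all 3. Of these, 542 lay outside CT runs and the segment. All 3 comparisons use the same ancestral pool, so sampling of that pool and a shared difference of the selected populations cannot be told apart, and recurrence is used only to choose which genes to describe. CVL39 has an ancestral pool of its own. Of the 542 positions, 28 (5.17%) were also listed in at least 1 CVL39 population, and of the 22043 positions in a single CVL125 list outside runs and segment, 4.08% were.

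In D1, 3925 of 27444 protein-coding genes (14.3%) had at least 1 DMC in the gene body, in D5 4660 (17.0%) and in D6 2243 (8.17%). In 869 genes (3.17%) each of the 3 lists had one. Pseudogene loci were hit more often, 27.9% of 4843 in D1, 28.0% in D5 and 23.7% in D6. Longer genes offer more cytosines: protein-coding genes with a DMC in every list had a median length of 3284 bp, and those with none 1837 bp.

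The genes with the most positions in all 3 lists outside CT runs and the segment were mainly annotated pseudogenes, 6 of 8. As they were chosen on CVL125 positions, the CVL39 counts beside them show no difference between the lines. AT3G42100 on chromosome 3 had 29 DMCs in D1, 36 in D5 and 28 in D6, against 25, 18 and 20 in the CVL39 lists, and 45 of its 76 distinct CVL125 positions were CHH. AT1G43740 had 9 in D1, 17 in D5 and 10 in D6, against 4, 10 and 10 in CVL39. AT5G29022 had 9, 7 and 8, against 6, 7 and 5. These 3 loci were listed in every population of both lines. AT3G30837 had 6, 6 and 4 DMCs, against 1, 0 and 0. AT3G43526 had 5, 6 and 5, against 1, 1 and 5.

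AT1G27550, an F-box gene, and its neighbour AT1G27560, a transcribed pseudogene, stood together on chromosome 1. AT1G27550 had 7 DMCs in D1, 12 in D5 and 9 in D6, against 4, 1 and 3 in CVL39. AT1G27560 had 13, 12 and 10, against 15, 9 and 14. AT5G28780, annotated as a PIF1 helicase and so of a family that unwinds DNA, had 4 DMCs in D1, 4 in D5 and 6 in D6, against none in any CVL39 list. Its 3 positions common to all CVL125 lists were CHH cytosines within 15 bases, at 10813807, 10813813 and 10813821 of chromosome 5.

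**Figure D4:**
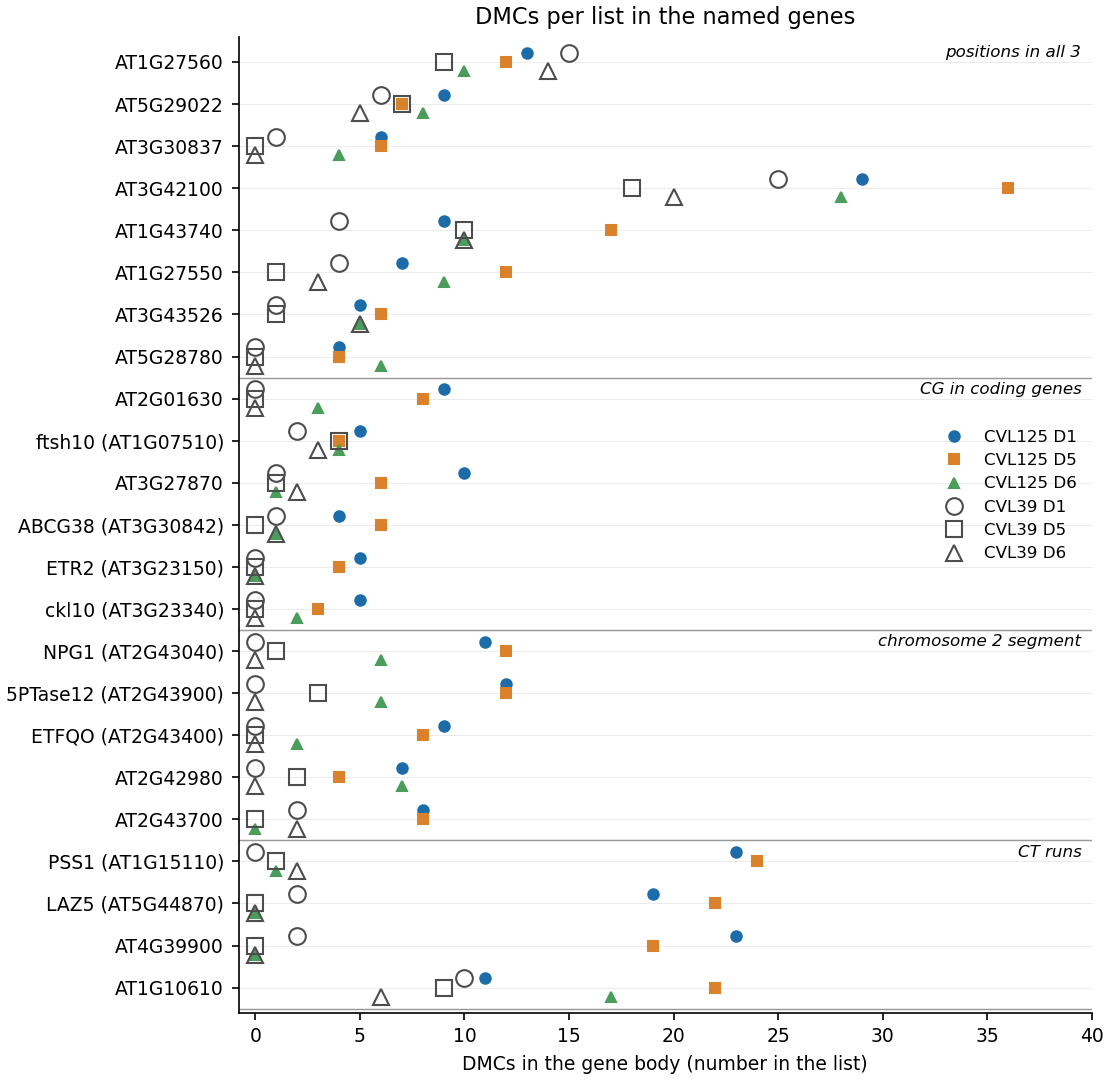
DMCs per list in the bodies of the named genes, with filled symbols for D1, D5 and D6 of CVL125 and open symbols for the CVL39 populations. The genes are grouped by the rule that chose them, and in the CT run group PSS1, LAZ5 and AT4G39900 have 19 to 24 DMCs in D1 and D5 of CVL125 and at most 1 in D6.

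Outside the segment, the protein-coding genes with the most CG positions in at least 2 populations had these in coding exons. AT2G01630, an O-glycosyl hydrolase, had 9 DMCs in D1, 8 in D5 and 3 in D6, all CG, against 0 in each CVL39 list. ETR2 (AT3G23150), an ethylene receptor, had 5, 4 and 0, against 0 in each CVL39 list, and ckl10 (AT3G23340), a casein kinase I-like protein, had 5, 3 and 2, likewise against 0. In these 3 genes D6 had fewer DMCs than D1 and D5. AT3G27870, a P-type ATPase, had 10 in D1, 6 in D5 and 1 in D6, against 1, 1 and 2. ABCG38 (AT3G30842), a membrane transporter of the pleiotropic drug resistance type, had 4, 6 and 1, against 1, 0 and 1. Only ftsh10 (AT1G07510), a mitochondrial protease, was as high in D6 as in D5, with 5, 4 and 4 against 2, 4 and 3.

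CVL125 had 1 dense CG stretch on a chromosome arm. In a 500 kb segment of chromosome 2, whose CG positions listed in at least 2 populations ran from 17802226 to 18278051, the D1 list held 224 CG DMCs (4.12% of its CG DMCs), D5 226 (3.37%) and D6 49 (1.81%), against 19, 29 and 29 in the CVL39 lists. Per cytosine this was 10.4 times the CG density of the rest of the genome in D1, 8.39 times in D5 and 4.43 times in D6. CHG and CHH DMCs were not dense there, with 2 CHG DMCs in each list and 17, 24 and 1 CHH DMCs. The methods of the study describe a stretch of chromosome 2, of about the length of this segment, that was heterozygous for Ler and Cvi in CVL125. The authors genotyped CVL125 plants and found equal proportions of the genotypes in the original seed and the selected populations. They took this to mean that the heterozygosity was not under selection. The limits of that stretch were not used here, and its part in this result was not tested. Of the 164 protein-coding genes of the segment, 21 (12.8%) had a DMC in all 3 lists, against 3.17% of all protein-coding genes. The segment was chosen with these lists known, so this is a description.

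NPG1 (AT2G43040), a calmodulin-binding protein needed for pollen germination, had 11 DMCs in D1, 12 in D5 and 6 in D6, against 0, 1 and 0 in CVL39, all of the CVL125 positions being CG in coding exons. 5PTase12 (AT2G43900), an inositol polyphosphate phosphatase, had 12, 12 and 6, against 0, 3 and 0. ETFQO (AT2G43400), which passes electrons from flavoproteins to ubiquinone in mitochondria, had 9, 8 and 2, against 0 in each. In these 3 genes D6, the shortest list, held fewer DMCs than D1 and D5. They were chosen on their CVL125 positions, so the CVL39 counts are given only as a description. AT2G42980, an aspartyl protease, had 7, 4 and 7, against 0, 2 and 0, and AT2G43700, a lectin receptor kinase, had 8, 8 and 0, against 2, 0 and 2. The flowering regulator FPA (AT2G43410) overlaps the end of ETFQO and had 4 CG DMCs in D1, 7 in D5 and 1 in D6, against 1, 1 and 3.

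Upstream groups were small. Upstream of PFD1, a subunit of the chaperone prefoldin, the same 4 CHH cytosines were listed in D5 and D6, at a p-value of 0.0333 each in D5 and 0.0476 each in D6, and none in D1. Upstream of AT3G61898, 4 DMCs in D1 and 6 in D5 stood beside a CT run, with none in D6. AT5G36210, an alpha/beta hydrolase, had 4 upstream DMCs in D1, 5 in D5 and 1 in D6, and AT5G01670, an oxidoreductase, had 2, 2 and 3. The CVL39 lists held at most 1 upstream DMC at each of these 4 genes.

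Some genes were listed in 1 CVL125 population alone. In D1 these were led by GLY3 (AT1G53580), annotated as glyoxalase II 3, with 9 DMCs within 24 bases of a coding exon. AT1G42510, a pseudogene, and AT5G28630, a glycine-rich protein, had 6 each in D1. In D5, MUB5, a membrane-anchored ubiquitin-fold protein, and AT1G77880, which overlap tail to tail, shared the same 9 DMCs, and the pseudogene AT3G29769 also had 9. Of the genes listed in D6 alone none had more than 4, reached by AT1G67450, an F-box protein, and by the pseudogenes AT3G43835 and AT5G35048. In the CVL39 lists AT3G43835 had 1, 6 and 3 DMCs, AT1G42510 had 1, 2 and 1, AT3G29769 had 1, 0 and 0, and the other named genes of this kind had none. The largest groups of D6 outside CT runs were 13 CHH DMCs within 28 bases at 9593847 of chromosome 4 in AT4G17060, 11 CHH DMCs within 28 bases at 15962577 of chromosome 3, outside any gene, and 7 DMCs within 89 bases at 11909004 of chromosome 5.

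Groups of at least 5 DMCs with gaps of at most 50 bp, apart from those counted as CT-run groups, numbered 56 in D1, 60 in D5 and 20 in D6, against 48, 46 and 55 in the CVL39 lists. Some of the largest still held cytosines of CT runs, such as 5 of 11 in AT2G33460 in D1. The groups held 2.77%, 2.68% and 1.62% of the DMCs of the CVL125 lists. Most were CHH, 43 of 56, 47 of 60 and 15 of 20. Of the CVL125 groups, 49, 47 and 16 lay wholly on 1 strand.

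Gene lists for the traits under study were read against the shares of all protein-coding genes with a DMC, 14.3% in D1, 17.0% in D5 and 8.17% in D6. Of 43 flowering-time genes, 10 had a DMC in D1, 11 in D5 and 8 in D6. Of 29 clock and light genes these were 7, 8 and 3, and of 34 branching and meristem genes 4, 8 and 4. Of 35 genes of DNA methylation and silencing, 14 had one in D1, 18 in D5 and 8 in D6. The median length of these lists was 3621, 3588, 2570 and 5039 bp in that order, against 2078 bp for all protein-coding genes. The share of protein-coding genes with a DMC in at least 2 lists was 4.10% up to 2 kb, 14.6% from 2 to 4 kb and 26.1% from 4 to 6 kb. The counts of the lists are not set against genes of the same length.

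In the flowering list, CLF, a Polycomb histone methyltransferase, had 3 CG DMCs in D1, 4 in D5 and 2 in D6, against 1, 0 and 0 in CVL39. MAF2, a repressor of flowering related to FLC, had 5 in D1, 2 in D5 and 1 in D6, all in a CT run, against 0, 1 and 0 in CVL39. FIP1 had 1 in each list at a single CG position, against 0, 0 and 2. CO, the photoperiodic activator, had 1, 2 and 0, against 1, 1 and 2. FLK, an RNA-binding regulator of FLC, had 1, 2 and 0, against 0 in each CVL39 list. In the clock and light list, LKP2, an F-box light receptor, had 1 in each list, against 1, 0 and 0 in CVL39. SPA1, a repressor of light signalling, had 1, 1 and 0, against 0, 0 and 2.

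In the silencing list, the demethylase ROS1 had 4 DMCs in D1, 3 in D5 and 0 in D6, and DME, another demethylase, had 1, 3 and 0. DRM2, the de novo methyltransferase, had 1, 0 and 2. SUVH9 had 3, 1 and 0, RDM1 had 0, 3 and 1, and DRD1, a chromatin remodeller of the small RNA pathway, had 1 in each list. Over the whole silencing list, 23 of 35 genes had a DMC in at least 1 CVL125 list, against 19 in at least 1 CVL39 list, and 13 in at least 2, against 12. For flowering time these counts were 14 against 16 in at least 1 list, and 10 against 7 in at least 2. Clock and light genes gave 10 against 16, and 7 against 9. Branching and meristem genes gave 11 against 8, and 5 against 6. The named members were chosen on their CVL125 positions. In the branching list, the auxin receptor TIR1 had 4, 4 and 0, of which most were in CT runs, SMXL7 of strigolactone signalling had 0, 1 and 1, and CLV2 of stem cell control had 1, 1 and 0. With 1 to 9 positions a gene, none of these counts was tested.

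CVL125 and CVL39 were compared on 9 measures with the population as replicate (two-sided exact permutation test, 3 against 3, smallest possible p 0.1). The share of DMCs within 1 kb upstream of protein-coding genes and outside genes was 3.05%, 3.08% and 2.89% in D1, D5 and D6 of CVL125 and 3.12%, 3.31% and 3.25% in those of CVL39, a mean of 3.01% ± 0.102 against 3.23% ± 0.096 (SD, n = 3 each). It was the only measure whose groups did not overlap, with a difference of the means of -0.22 percentage points (exact permutation p = 0.1, adjusted 0.9 over the 9). The gap between the groups was small, from 3.08% in D5 of CVL125 to 3.12% in D1 of CVL39. The difference was -0.11 with p-values up to 0.005 only (exact permutation p = 0.8), -0.19 without the segment (exact permutation p = 0.2) and -0.42 without CT runs (exact permutation p = 0.1), so the separation of the groups was lost in the first 2 of these settings. The combined share of CAA and CTA among CHH DMCs was 35.6%, 35.5% and 48.1% in CVL125, against 48.7%, 47.4% and 48.6% in CVL39 (exact permutation p = 0.2, adjusted 0.9). The mean difference of -8.51 percentage points shrank to -2.06 without CT runs. With all p-values it was D1 and D5 that were low while D6 lay within the CVL39 range. With p-values up to 0.005 only, the difference was -21.2 (exact permutation p = 0.1, the smallest possible). All CVL125 lists, D6 included, then lay below all CVL39 lists. CT runs were kept in this setting and held a mean of 42.5% of CVL125 CHH DMCs (SD 29.4), against 19.2% with all p-values. The difference at this limit outside CT runs was not computed, so the part of CT runs in it was not tested.

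The other 7 measures overlapped between the lines. Protein-coding genes with a CG DMC were 11.7%, 14.4% and 6.33% in CVL125, against 10.7%, 12.6% and 12.5% in CVL39 (exact permutation p = 0.8). The share of DMCs in gene-poor windows was 44.7%, 41.2% and 53.5%, against 48.8%, 46.6% and 46.7% (exact permutation p = 0.8), so that D6 lay above and D1 and D5 below every CVL39 list. The median position of CG DMCs in genes was 64.1% ± 0.976 of gene length (SD, n = 3) for CVL125 populations, against 64.3% ± 0.591 (SD, n = 3) for those of CVL39 (exact permutation p = 0.8). For the coding exon share of genic CG DMCs, the CCG share, the pseudogene share of CHG DMCs and the CG sites listed on both strands the exact permutation p was 0.4, 0.5, 0.7 and 1, and the adjusted p of all 7 was at least 0.9. Each line has its own ancestral pool, and a difference between those pools cannot be told apart from one between the lines.

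**Figure D5:**
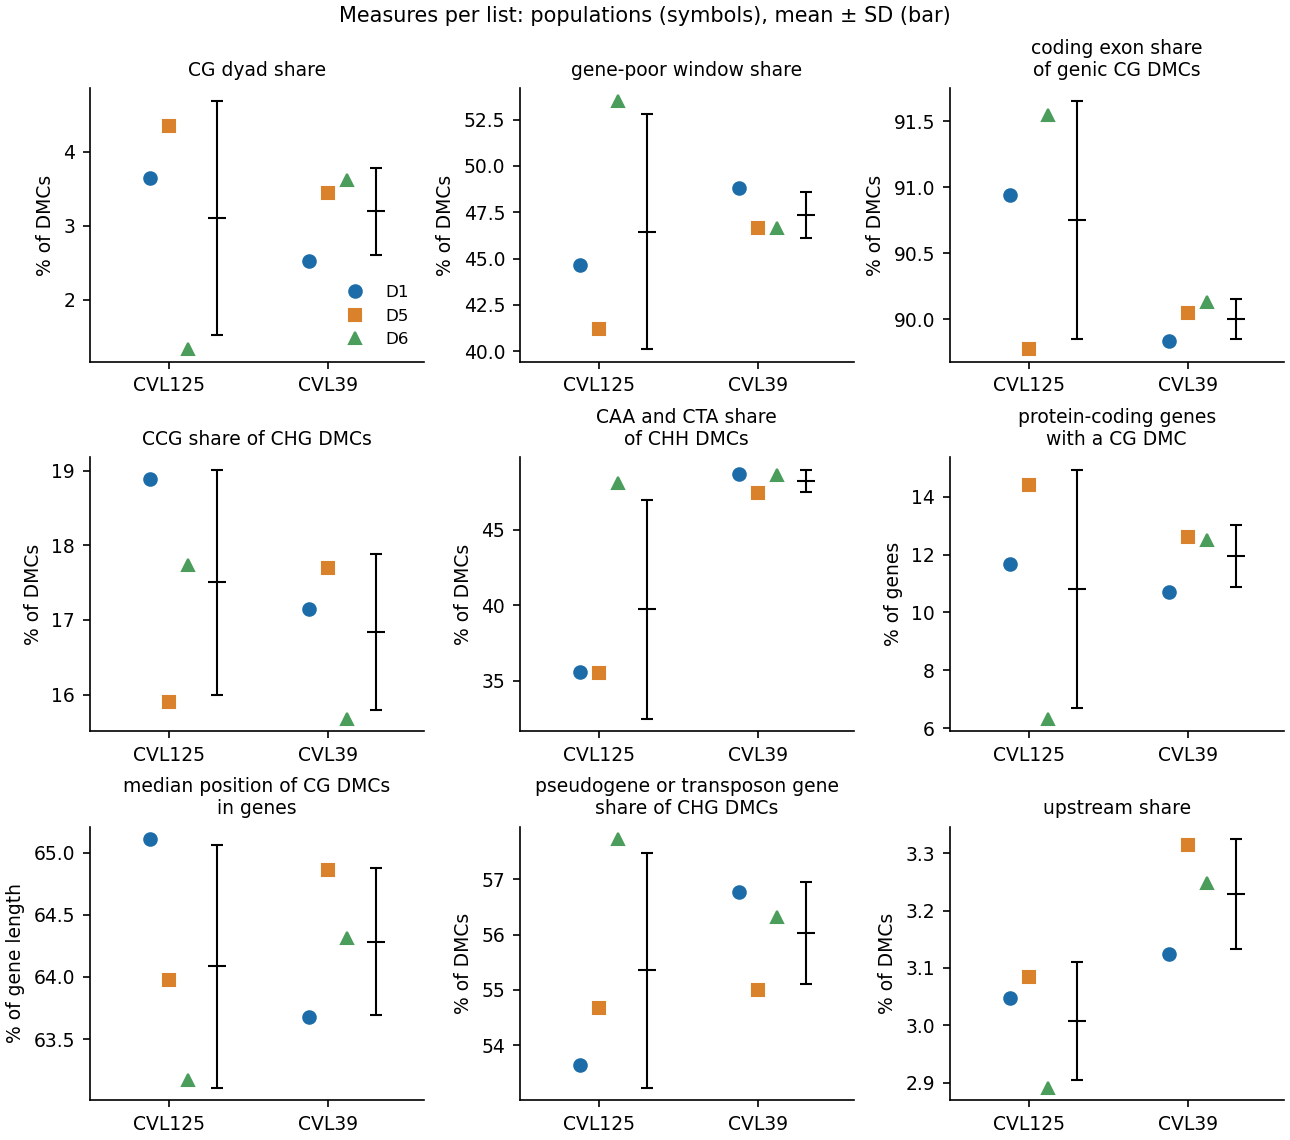
The 9 measures compared between lines, in percent, with CVL125 at left and CVL39 at right; symbols are the populations D1, D5 and D6, and bars give the mean and SD of 3 populations on axes that do not start at 0. Groups separate only for the upstream share (3.01% against 3.23%), and in the panel of CAA and CTA D1 and D5 of CVL125 lie at 35.6% and 35.5%, below all other populations.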

How the data were processed

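Bisulfite-treated DNA of the pools was sequenced on SOLiD by the authors, as a pilot of low coverage. The deposited lists give chromosome, strand, position and an unadjusted p-value per cytosine; the authors listed p-values up to 0.05 and state neither the test nor a coverage minimum in the sources used here. The methods describe an alignment of these reads by SOCS 2.1 against TAIR10 sequences adapted to Ler and to Cvi, tolerating 4 mismatches. It served to map recombination points, and whether the lists rest on it is not stated. Depth per sample is unknown, so intervals cover counting error only.

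Positions were matched to TAIR10.1, whose nuclear sequence is that of TAIR10, with the RefSeq annotation. Rows on organelles or off a cytosine were left out. Features were ranked coding exon, untranslated exon, intron, pseudogene, other gene, 1 kb upstream, 1 kb downstream. Computations used Python 3.11.15, numpy 2.4.6, pandas 2.3.3 and scipy 1.17.1, and the measures were tested on simulated data. Lines were compared by exact permutation over populations with Benjamini-Hochberg adjustment.

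The members and gene lists were chosen with earlier results of these data known. Named genes were, in CVL125, the 8 with most positions in all 3 lists outside CT runs and segment, the 6 with most CG positions in at least 2 lists, 5 of the segment, 4 of CT runs, 4 by upstream positions, 3 listed in 1 population alone for each population, and up to 6 members of each gene list with a shared position.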

Additional observations from a re-analysis of the deposited data

Results flagged for a closer look

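Rows of the CVL125 lists outside the nuclear cytosines were left out of the results above. Their numbers are given here as a description and were not tested. The chloroplast genome had 148 listed positions over the 3 lists, 42 in D1, 79 in D5 and 27 in D6. The mitochondrial genome had 100, of which 39 were in D1, 30 in D5 and 31 in D6. A further 170 nuclear rows did not fall on a reference cytosine, and the reference base of the stated strand was T at 53 of the 75 in D1, 40 of the 61 in D5 and 22 of the 34 in D6.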

How the results depend on the processing

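Of 101 recomputed values 12 differences changed sign and 10 counts or shares moved by more than their limits. The other 79 kept their sign or, for counts and shares, stayed within those limits, but some differences changed in size, such as CAA and CTA (-8.51) to -2.06 without CT runs and -21.2 with p-values up to 0.005, and the upstream share (-0.22) to -0.112 with p-values up to 0.005 and -0.422 without CT runs. Sign changes concerned differences between CVL125 and CVL39 that were within the spread of the populations. With p-values up to 0.005 only, the difference became 0.447 percentage points for CG sites listed on both strands (-0.0855 with all p-values), 1.81 for gene-poor windows (-0.906), -1.90 for the CCG share (0.664) and 0.589 for the pseudogene share of CHG DMCs (-0.674). Leaving out 1 landscape gave ranges of -0.691 to 1.02 for both-strand CG sites, -4.80 to 1.37 for gene-poor windows, -0.0305 to 1.90 for CCG, -2.60 to 1.39 for genes with a CG DMC, -1.01 to 0.272 for the median position in genes and -1.72 to 0.549 for the pseudogene share, each with 1 landscape left out in both lines. The sign changed without landscape 6 for both-strand sites, CCG, genes and median position, without landscape 5 also for median position and gene-poor windows, and without landscape 1 for gene-poor windows and the pseudogene share. The cause was not tested. The replicate block, which pairs populations by landscape, changes only the test (smallest possible p 0.25, reached by the upstream share and by CAA and CTA). Its differences for the 9 measures are the same by construction, although they count among the 79, and so show nothing about stability. Deviations of the pairs correlated at -0.218, 0.262 and -0.142 over 240 windows. Pairs of unlike landscapes gave -0.288 to 0.307. With so few pairs these correlations cannot decide whether a shared landscape links the lines. With p-values up to 0.005 the positions in all 3 CVL125 lists were 65 (639 with all p-values) and the annotated genes 111 (1526), the segment held 5.89% of CG DMCs (mean 3.10%) and CT runs 42.5% of CHH DMCs (mean 19.2%). Allowing the same context within 50 bp gave 2425 positions, and gene bodies with 1 kb on both sides gave 2446 genes. Counts over the remaining 2 lists were 1359 to 3623 positions and 2014 to 3356 genes, both highest without D6. The segment share without the segment and the run share without runs have no value. Depth limits every count, since it is unknown which cytosines could have been listed.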
